A study of Mus musculus with 42 samples.

Results

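Untreated bone-marrow-derived macrophages (BMDM) kept in culture for 24 h (Control 24 h) were compared with untreated BMDM at 0 h (Control 0 h). Every library whose label gave no treatment and a time of 0 h or 24 h was taken, and these were 12 of the 42 libraries of the series. They fell into 4 groups of 3 libraries, namely WT Control 0 h, KO Control 0 h, WT Control 24 h and KO Control 24 h, so that each time held 6 libraries. The remaining libraries were 6 of untreated cells at 2 h, whose levels are given beside some genes as a description, and cells treated with palmitate or lipopolysaccharide, which are not described here. The study asked how the transcription factor interferon regulatory factor 5 (IRF5) shapes macrophage metabolism. The question addressed here was which genes differed between the start and the end of a day of culture without treatment.

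BMDM are cells of mouse bone marrow that were differentiated into macrophages in medium with L929 cell supernatant, a source of the growth factor M-CSF. KO mice carried floxed alleles of Irf5 and a Cre recombinase inserted at Lyz2, a gene active in myeloid cells, and WT mice were wild type. The strain was C57BL/6 in the study's account. The mice were young adult males. The medium used between 0 h and 24 h and any change of it are not given in the sources used here. Nothing stated whether the 3 libraries of a group came from separate mice or cultures, so the p-values measure the spread between these libraries, which may be technical.

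Macrophages in culture depend on M-CSF, which binds the receptor Csf1r and drives survival, division and maturation. They clear particles through scavenger and complement receptors, degrade them in lysosomes, handle the lipid they take up by storage, oxidation or export, and sense microbial products through Toll-like receptors. Low basal signalling by type I interferon keeps interferon-stimulated genes transcribed in unstimulated cells. The conditions of a culture, such as nutrients, lactate, growth factor supply and cell density, are known to change over a day.

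Across the genes tested, about as many were lower as higher after 24 h, and most changes were small. Of 37310 genes in the table, 10984 were tested and 1727 (15.7%) passed an adjusted p of 0.05 in edgeR's quasi-likelihood F test with genotype as a term and Benjamini-Hochberg adjustment. Of these, 822 (7.48% of genes tested) were higher and 905 (8.24%) were lower at 24 h. The log2 fold change was over 1 in size in 121 of them (1.10% of genes tested). It exceeded 1 in 93 higher genes (0.847%) and fell under -1 in 28 lower genes (0.255%). In 737 genes (6.71%) the 6 libraries of 24 h did not overlap the 6 of 0 h, 336 of them higher (3.06%) and 401 lower (3.65%). The median log2 fold change over all genes tested was 0.004. Each count of list members below is to be read beside these shares over all genes tested. A value given alone beside a gene below is its log2 fold change, 24 h against 0 h, and a gene is called lower, higher, fallen or risen only where it passed this test.

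The label of the cells was checked against 10 macrophage markers. All 10 had counts in each of the 12 libraries, with a summed level between 11164 and 17632 CPM, a gene's count per 1000000 counts of its library, scaled by edgeR's trimmed mean of M-values (TMM). Much of that sum came from Lyz2, with means of 10349 CPM at 0 h and 11366 CPM at 24 h in WT. In libraries labelled KO its means were 7297 and 5983 CPM. The libraries summed to 3420759 to 7743442 counts, and 3 counts were worth 0.387 to 0.877 CPM. Irf5 did not follow its label. Its level was 213, 234 and 225 CPM in the 3 WT libraries at 0 h and 313, 284 and 333 CPM in the 3 libraries labelled KO, and at 24 h it was 247, 236 and 239 CPM in WT and 277, 284 and 285 CPM in those labelled KO. The libraries labelled KO thus had the higher Irf5 level at both times without overlap. Gene-level counts include exons outside a deleted stretch, so a check by exon was not possible, and the reads of Irf5 also lie beside those of Tnpo3, which overlaps it. Lyz2, the site of the Cre insertion, was at 10300.0 to 10402 CPM in WT and 5469.7 to 8918 CPM in libraries labelled KO at 0 h. KO below therefore means a library labelled KO. Between the times, neither Irf5 (log2 fold change -0.02, SE 0.05, adjusted p = 0.870) nor Ghitm, the mitochondrial gene at the centre of the study (log2 fold change -0.07, SE 0.06, adjusted p = 0.490), passed the test.

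Markers of other cells were summed per library. Granulocyte precursor markers summed to 106 to 122 CPM in WT and 141 to 156 CPM in KO at 0 h, and to 153 to 159 CPM in WT and 241 to 327 CPM in KO at 24 h. Of the 7 of 14 that were tested, 5 were called higher at 24 h (S100a8 by 1.07, S100a9 by 0.61, Lcn2 by 0.70, Ltf by 0.72 and Mmp8 by 0.75 on the log2 scale). Within WT 2 of the 7 were higher (7.26% of all genes tested were), with a median of 0.07. Within KO 6 were higher (4.52%), with a median of 1.03. Fibroblast markers summed to 0.919 to 1.44 CPM in WT and 43.9 to 71.9 CPM in KO at 0 h, and to 2.86 to 47.3 CPM in WT and 42.4 to 139 CPM in KO at 24 h. The defining fibroblast gene Lum had 0 counts in all 12 libraries, which allows a level of up to 0.387 to 0.877 CPM (3 counts), and Dcn had at most 1 count. The collagen genes of that list were present in KO, with Col1a1 at 125 to 223 counts, Col1a2 at 59 to 126 and Col3a1 at 25 to 47 in KO Control 0 h and at 155 to 342, 74 to 159 and 21 to 34 in KO Control 24 h. In WT Control 0 h they had at most 4 counts, and in WT Control 24 h Col1a1 had 2 to 167. Markers of B cells, T and NK cells, erythroid cells, dendritic cells and mast cells summed to at most 13.6 CPM in any library, and Flt3 and Siglech, of dendritic cells, were called higher at 24 h. In bulk RNA, fewer cells of a type and less RNA per cell cannot be told apart, and the part of these cells in the results below was not tested. The share of counts from mitochondrial DNA was 9.36% ± 0.728 (SD, n = 6) at 0 h and 8.91% ± 0.323 (SD, n = 6) at 24 h, a difference that did not pass a two-sided exact permutation test within genotype (p = 0.145, smallest possible 0.005). The labels moved in opposite directions, each without overlap between the times. The share in WT was 9.91% to 10.02% at 0 h and 8.55% to 8.77% at 24 h, and that in KO was 8.26% to 9.05% at 0 h and 9.09% to 9.34% at 24 h.

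Id1, Id3, Smad6, Pmepa1 and Ltbp2 were among the genes with the largest increases. The rule by which they were named asked for no overlap between the libraries of the 2 times. Id1, which encodes an inhibitor of basic helix-loop-helix transcription factors (ENSMUSG00000042745, chr2:152736251-152737410, plus strand, GRCm38), lay between 1.20 and 2.55 CPM (median 1.56) in the 6 libraries of 0 h and between 6.37 and 12.4 CPM (median 10.4) in those of 24 h. The 2 sets did not overlap, and the increase was 5.74-fold (log2 fold change 2.52, SE 0.25, adjusted p = 3.19e-08). Id3 of the same family (chr4:136143497-136145755, plus strand) was at 6.04 to 12.2 CPM (median 9.14) at 0 h and 22.6 to 35.4 CPM (median 28.8) at 24 h, again without overlap (log2 fold change 1.60, SE 0.14, adjusted p = 6.30e-09). Smad6, an inhibitor of BMP signalling (chr9:63953076-64022059, minus strand), was at 2.61 to 5.80 CPM (median 3.08) at 0 h and 9.34 to 17.2 CPM (median 14.4) at 24 h (log2 fold change 1.87, SE 0.20, adjusted p = 1.79e-07). Its lowest library of 24 h lay above its highest of 0 h, as did that of Pmepa1, which dampens TGF-β signalling and was at 0.735 to 2.88 CPM (median 1.77) at 0 h and 4.29 to 9.85 CPM (median 5.60) at 24 h (log2 fold change 1.90, SE 0.29, adjusted p = 2.79e-05). Ltbp2, a matrix protein related to the latent TGF-β binding proteins, rose by 1.73 on the log2 scale (SE 0.19, adjusted p = 2.17e-07).

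For several of these genes the level at 2 h of untreated culture was above that at 24 h. Id1 was at 19.0 to 26.4 CPM at 2 h, Smad6 at 53.7 to 74.1 CPM, Id3 at 52.0 to 66.1 CPM and Pmepa1 at 11.3 to 19.1 CPM, in each case above the whole range of 24 h. Spsb1, which encodes a substrate receptor of a ubiquitin ligase, stood at 31.3 to 44.2 CPM at 2 h and at 1.60 to 3.31 CPM (median 2.56) at 0 h and 6.63 to 10.6 CPM (median 8.47) at 24 h (log2 fold change 1.74, SE 0.22, adjusted p = 2.31e-06). Ltbp2, with 6.63 to 10.9 CPM at 2 h, and the fatty acid binding protein Fabp7, with 4.91 to 12.9 CPM, were instead below their range of 24 h at 2 h.

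The remaining genes with the largest increases were of varied function. Fabp7 rose from 4.95 ± 1.74 to 20.4 ± 2.00 CPM (SD, n = 6; log2 fold change 2.01, SE 0.17, adjusted p = 3.14e-09). Tmeff1, a membrane protein with follistatin-like domains, rose by 2.07 (SE 0.20, adjusted p = 4.19e-08). Adgb, which encodes androglobin, rose by 2.04 (SE 0.19, adjusted p = 1.15e-08). Ly6a, the surface antigen Sca-1, was at 0.552 to 3.31 CPM (median 2.24) at 0 h and 6.31 to 8.86 CPM (median 7.53) at 24 h (log2 fold change 1.88, SE 0.27, adjusted p = 1.25e-05). Cmah, an enzyme of sialic acid synthesis, rose by 1.66 and Dmpk, a protein kinase, by 1.55 on the log2 scale. None of these genes had overlapping libraries between the times, which was part of the rule by which they were named.

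**Figure D1:**
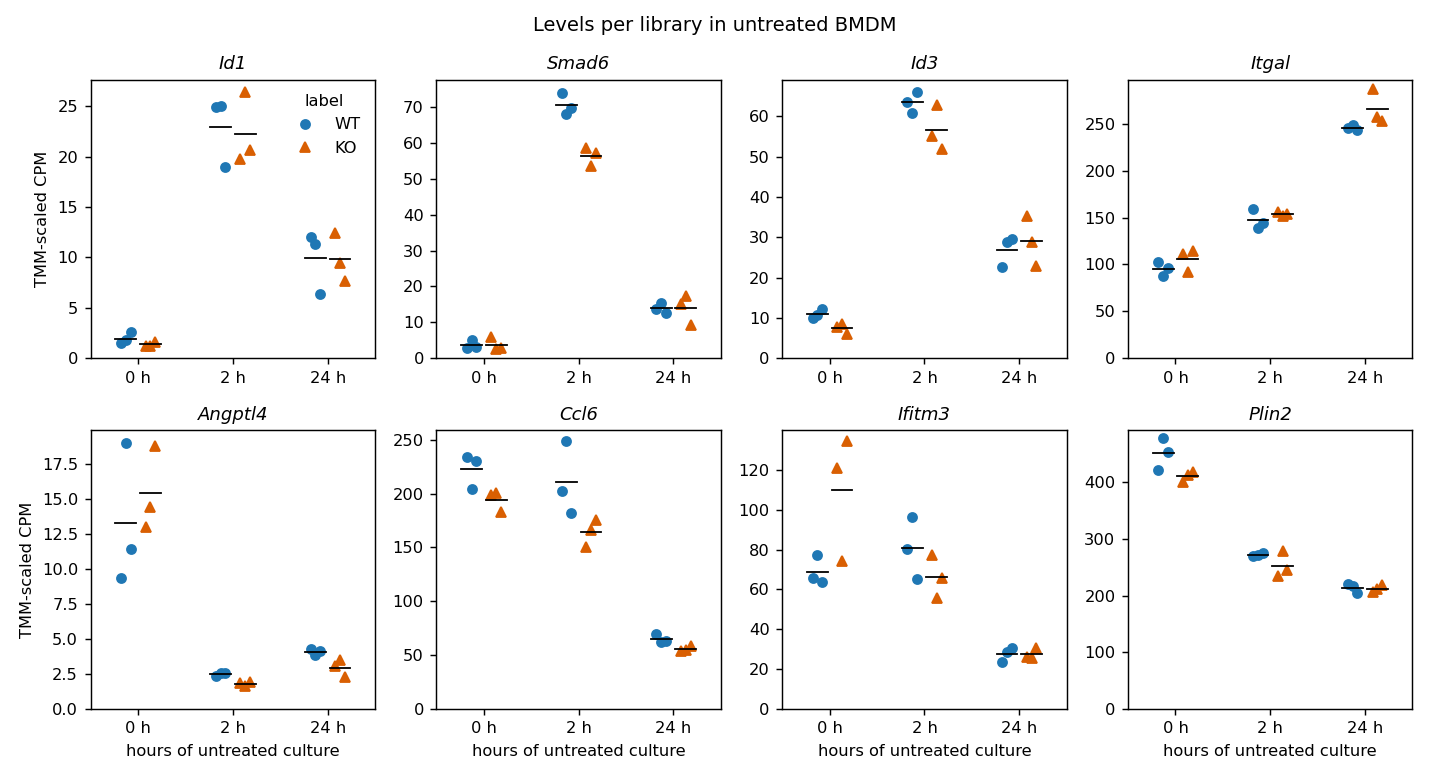
Levels per library in TMM-scaled CPM on a linear axis from 0 at 0, 2 and 24 h of untreated culture for Id1, Smad6, Id3, Itgal, Angptl4, Ccl6, Ifitm3 and Plin2, with circles for WT, triangles for KO and black lines for the mean of 3 libraries. The 24 h libraries lie above those of 0 h in Id1, Smad6, Id3 and Itgal and below them in the other panels, and Id1, Smad6 and Id3 are highest at 2 h.

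Angptl4, Ccl6, Il1rn, Vegfa, Ifitm3 and Ifi44 were among the genes with the largest decreases. Angptl4, which encodes an inhibitor of lipoprotein lipase (chr17:33773750-33781830, minus strand), was at 9.38 to 19.1 CPM (median 13.7) at 0 h and 2.30 to 4.29 CPM (median 3.68) at 24 h, a 4.10-fold decrease without overlap (log2 fold change -2.04, SE 0.20, adjusted p = 5.28e-08). At 2 h it was already at 1.64 to 2.56 CPM. The chemokine gene Ccl6 (chr11:83587882-83593087, minus strand) had the smallest adjusted p of the genes named, with 183 to 234 CPM (median 202) at 0 h and 54.1 to 69.2 CPM (median 60.1) at 24 h (log2 fold change -1.79, SE 0.06, adjusted p = 4.25e-18), and its change was -1.79 within WT and -1.79 within KO. At 2 h Ccl6 was still at 150.4 to 249 CPM. Il1rn, which encodes the interleukin-1 receptor antagonist, was at 31.7 to 51.3 CPM (median 39.7) at 0 h and 10.6 to 19.1 CPM (median 14.1) at 24 h (log2 fold change -1.44, SE 0.12, adjusted p = 4.00e-09). Vegfa, the vascular growth factor, was at 72.0 to 117 CPM (median 91.5) at 0 h and 31.8 to 45.3 CPM (median 36.7) at 24 h (log2 fold change -1.27, SE 0.09, adjusted p = 1.09e-10). In each of these genes the highest library of 24 h lay below the lowest of 0 h, which was part of the rule by which they were named.

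Ifitm3, an interferon-induced membrane protein that restricts virus entry (chr7:141009586-141010770, minus strand), was at 63.8 to 134 CPM (median 75.8) at 0 h and 23.4 to 30.5 CPM (median 27.4) at 24 h (log2 fold change -1.66, SE 0.13, adjusted p = 1.04e-09). Ifi44, another interferon-induced gene, was at 3.13 to 7.60 CPM (median 5.51) at 0 h and 0.505 to 1.92 CPM (median 1.46) at 24 h (log2 fold change -1.93, SE 0.30, adjusted p = 4.47e-05). Anpep, the aminopeptidase CD13, fell from 316 ± 29.3 to 136 ± 21.9 CPM (SD, n = 6; log2 fold change -1.22, SE 0.08, adjusted p = 6.21e-11). Fxyd2, a regulatory subunit of the sodium pump, was at 60.6 to 282 CPM (median 109) at 0 h and 26.9 to 42.3 CPM (median 39.6) at 24 h (log2 fold change -1.74, SE 0.24, adjusted p = 9.67e-06), and the KO libraries of 0 h stood at 258, 154 and 282 CPM, above the WT libraries at 64.0, 60.6 and 61.9 CPM. The other genes of this group were Mex3b, an RNA-binding protein (-1.40), the lectin Clec10a (-1.31), the receptor Slamf8 (-1.23) and Rtp4, an interferon-induced chaperone (-1.21).

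**Figure D2:**
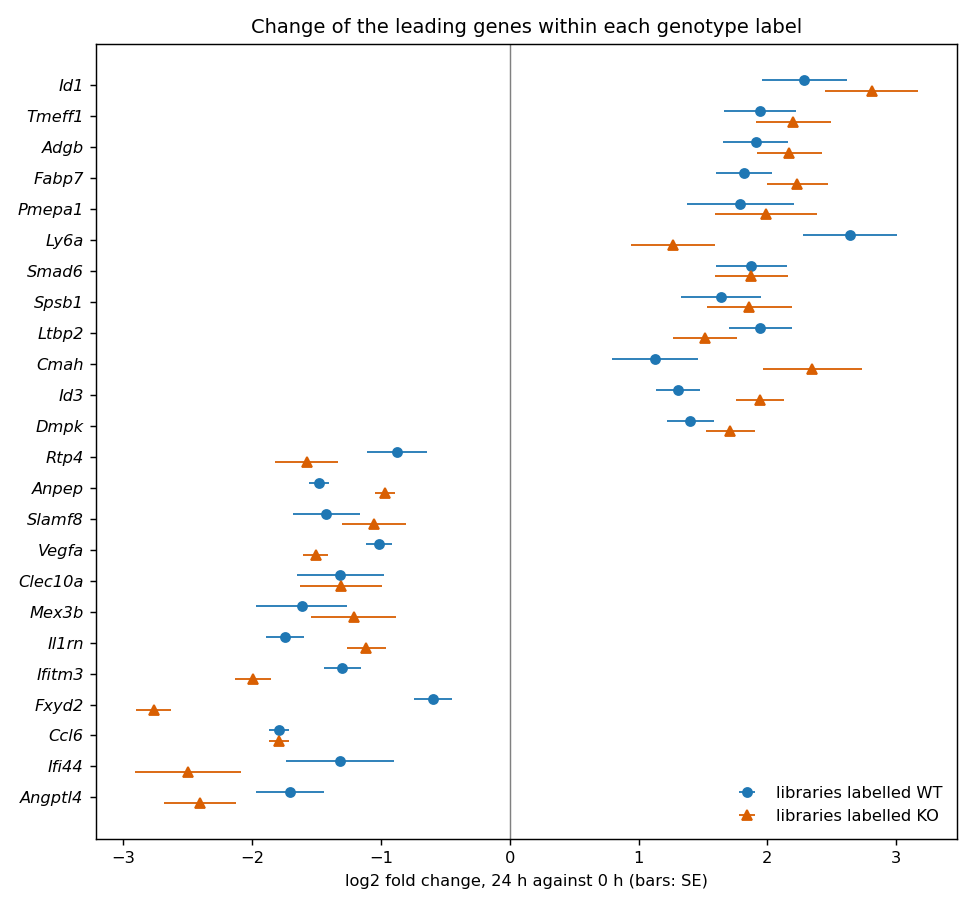
Log2 fold change of 24 h against 0 h on the x axis for the 24 genes named for the size of their change, estimated within WT (circles) and within KO (triangles), with bars for the SE. The 12 higher genes are right of 0 and the 12 lower genes left of 0 in both labels. The rule of no overlap between the times, by which they were named, fixed these sides in advance. Fxyd2 is the gene whose points lie farthest apart (-0.60 in WT and -2.76 in KO).

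Most interferon-stimulated genes were lower after a day of culture. Of 47 listed genes 44 were tested, 24 were called lower and 1 was called higher, and the median log2 fold change was -0.37 beside 0.004 over all genes. Of all genes tested 8.24% were lower and 7.48% higher. In 13 of the 44 the libraries of 24 h lay below all those of 0 h, beside 3.65% of all genes tested. Oasl2, an oligoadenylate synthetase-like protein, was at 37.2 to 69.6 CPM (median 53.1) at 0 h and 23.2 to 29.7 CPM (median 26.3) at 24 h (log2 fold change -0.95, SE 0.10, adjusted p = 8.58e-08), without overlap. Slfn2, of the Schlafen family, was at 168 to 191 CPM (median 175) at 0 h and 126 to 149 CPM (median 135) at 24 h (log2 fold change -0.38, SE 0.06, adjusted p = 1.47e-05), also without overlap. The decrease of Ifit1 was -0.81 (adjusted p = 0.000635) and that of Ifit3 -1.0 (adjusted p = 0.00135), members of a family that binds viral RNA. The transcription factors of the pathway were lower too, with Irf7 at -0.65 (adjusted p = 0.000565), Irf9 at -0.39 and Stat2 at -0.32. Gbp3, a guanylate-binding protein, was the called gene in the other direction (log2 fold change 0.35, SE 0.12, adjusted p = 0.0422), and Isg15, at -0.67 (adjusted p = 0.100), and Rsad2, at -0.48 (adjusted p = 0.0592), did not pass. Within each genotype 18 members were lower (7.78% of all genes tested were lower within WT and 5.55% within KO), with medians of -0.32 in WT and -0.41 in KO.

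Promoters of these genes were searched for the core of the interferon-stimulated response element, which is the letters TTTC, any 2 bases and TTTC again, on either strand. RefSeq promoters of GRCm38.p6, from 250 bases before to 50 bases after each start, were found for 35 of the 47 genes, 44 promoters in all. The letters were in 23 of them (52.3%) and in 12 of the 21 promoters of genes called lower (57.1%), beside 3.44% of all 32851 promoters. A match is a description of the letters and says nothing on binding in these cells. The 2 called genes with a match and the smallest adjusted p were Slfn5, which fell from 136 ± 15.7 to 104 ± 6.0 CPM (SD, n = 6; log2 fold change -0.38, SE 0.06, adjusted p = 7.50e-05), and Ifi207, which fell from 196 ± 19.4 to 154 ± 11.5 CPM (log2 fold change -0.35, SE 0.06, adjusted p = 0.000161). Their 250 bases before the start are shown 5′ to 3′ on the gene's strand with the match in capitals, at chr11:82951852-82952101 (plus strand, match starting 155 bases before the start) and chr1:173741810-173742059 (minus strand, 41 bases before the start).
Slfn5: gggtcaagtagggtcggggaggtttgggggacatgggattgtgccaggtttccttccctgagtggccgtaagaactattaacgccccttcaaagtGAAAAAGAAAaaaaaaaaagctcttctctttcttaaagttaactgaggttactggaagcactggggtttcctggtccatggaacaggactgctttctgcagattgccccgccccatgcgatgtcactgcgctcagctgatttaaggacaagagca
Ifi207: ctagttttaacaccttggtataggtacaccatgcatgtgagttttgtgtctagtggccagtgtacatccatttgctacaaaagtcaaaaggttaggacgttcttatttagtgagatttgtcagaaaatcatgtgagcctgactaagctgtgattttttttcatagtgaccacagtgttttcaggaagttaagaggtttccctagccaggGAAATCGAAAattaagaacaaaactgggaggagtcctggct

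Genes of the NRF2 pathway, which encode enzymes of glutathione synthesis, detoxification and the thioredoxin system, were more often higher than lower. All 29 listed genes were tested, 14 were called higher (7.48% of all genes tested were) and 4 lower (8.24%), and the median log2 fold change was 0.16. Gclc, the catalytic subunit of the rate-limiting enzyme of glutathione synthesis (chr9:77754535-77794485, plus strand), was at 90.6 to 167 CPM (median 109) at 0 h and 225 to 254 CPM (median 237) at 24 h, a 2.02-fold increase without overlap (log2 fold change 1.02, SE 0.09, adjusted p = 8.10e-09). Its increase was larger in WT (1.37) than in KO (0.68), with an interaction of genotype and time, the log2 fold change in KO minus that in WT, of -0.69, SE 0.11, adjusted p = 0.000156 (3.72% of all genes tested were called for it). Gstm1, a glutathione transferase, was at 193 to 257 CPM (median 220.5) at 0 h and 302 to 375 CPM (median 346) at 24 h (log2 fold change 0.63, SE 0.06, adjusted p = 6.16e-09), and Gclm, the regulatory subunit of the Gclc enzyme, rose from 555 ± 32.6 to 761 ± 50.7 CPM (SD, n = 6; log2 fold change 0.45, SE 0.05, adjusted p = 8.96e-08). The list further held higher levels of Gss (0.47), Mgst1 (0.51), Srxn1 (0.42), Nqo1 (0.40) and Hmox1 (0.40). The 4 lower members were the ferritin heavy chain Fth1 (-0.26, adjusted p = 6.71e-06), catalase, Cat (-0.20, adjusted p = 0.000498), Gpx4 (-0.18) and Nfe2l2, which encodes NRF2 itself (-0.20, adjusted p = 0.00183). Within WT 15 members were higher (7.26% of all genes tested were) and 5 lower (7.78%). Within KO 11 were higher (4.52%) and 3 lower (5.55%).

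The letters TGACNNNGC, the core of the antioxidant response element, were searched in the same way. They were in 9 of the 34 promoters found for 24 of the 29 genes (26.5%) and in 6 of the 15 promoters of genes called higher (40%), beside 12.4% of all promoters. The 2 called genes with a match and the smallest adjusted p were Gclm and Mgst1, a microsomal glutathione transferase that rose from 102 ± 10.8 to 145 ± 7.17 CPM (SD, n = 6; log2 fold change 0.51, SE 0.06, adjusted p = 3.91e-07). The 250 bases before their starts lie at chr3:122245307-122245556 (plus strand, match starting 134 bases before the start) and chr6:138140277-138140526 (plus strand, 56 bases before the start), with the match in capitals.
Gclm: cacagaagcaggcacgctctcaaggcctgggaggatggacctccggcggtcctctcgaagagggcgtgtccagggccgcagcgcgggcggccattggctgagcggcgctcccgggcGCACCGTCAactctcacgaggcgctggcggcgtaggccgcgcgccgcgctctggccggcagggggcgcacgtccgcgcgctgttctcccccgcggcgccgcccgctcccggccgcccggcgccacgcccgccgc
Mgst1: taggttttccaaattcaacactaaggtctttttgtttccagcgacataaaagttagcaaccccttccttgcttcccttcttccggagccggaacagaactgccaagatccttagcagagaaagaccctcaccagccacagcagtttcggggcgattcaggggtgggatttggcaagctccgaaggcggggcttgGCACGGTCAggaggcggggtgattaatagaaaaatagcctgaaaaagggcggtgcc

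**Figure D3:**
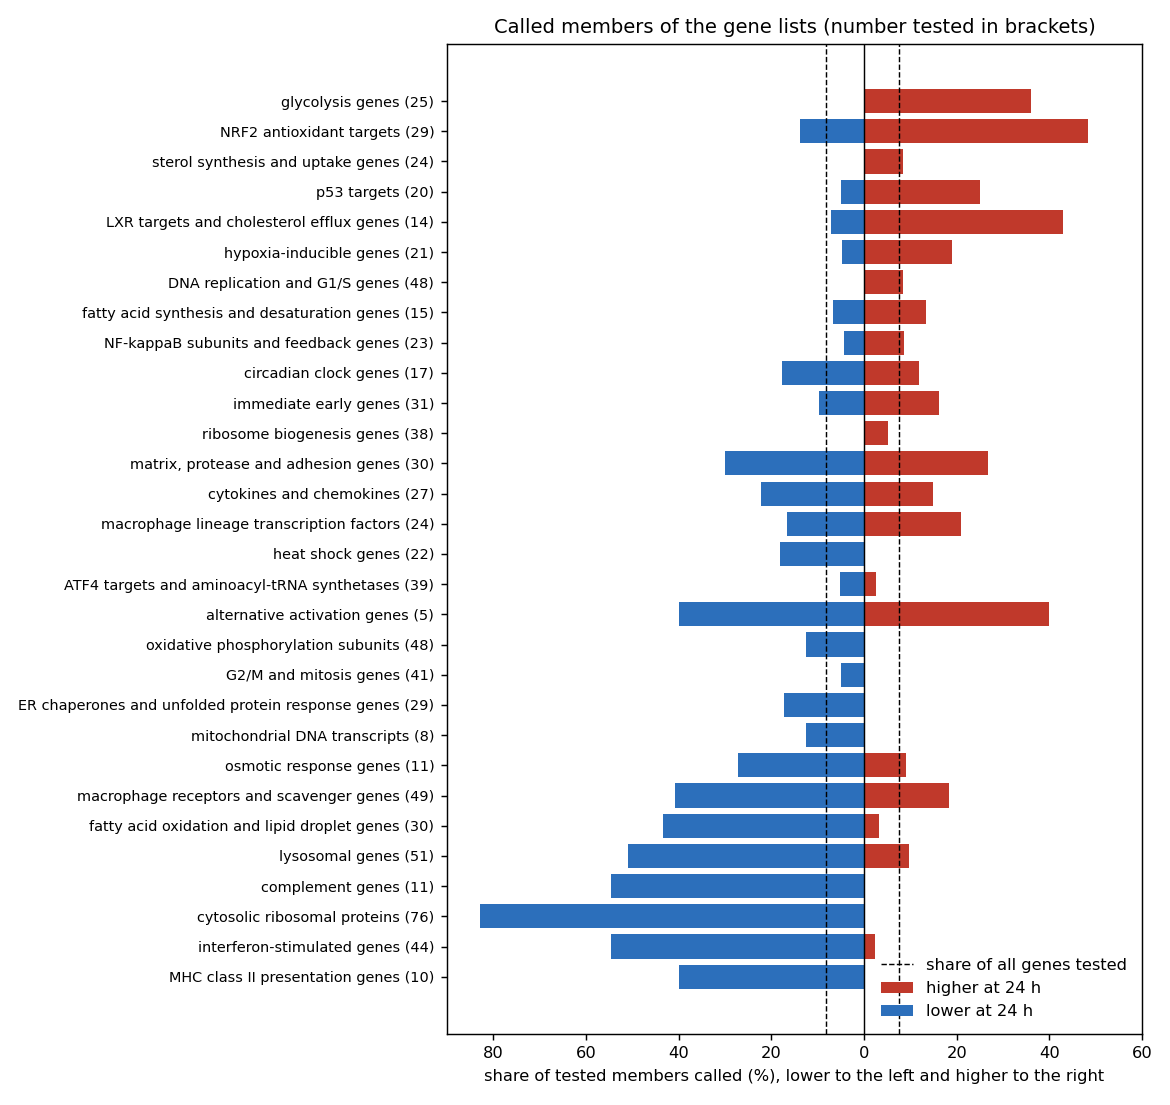
Share of the tested members of 30 gene lists that were called lower (bars to the left) or higher (bars to the right) at 24 h against 0 h, in percent, ordered by the median log2 fold change, with dashed lines at the shares over all genes tested (8.24% lower and 7.48% higher). Interferon-stimulated, ribosomal protein, lysosomal and complement genes reach far left of the line, and NRF2 targets, LXR targets and glycolysis genes far right of it.

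Genes of cytosolic ribosomal proteins were lower by small and similar amounts. Of 78 listed genes 76 were tested, 63 were called lower and 13 were not called, with a median of -0.25 and values between -0.37 and 0.0023. In 28 of them the libraries of the times did not overlap. Of all genes tested 8.24% were called lower, and 3.65% were lower without overlap. Rpl4, of the large subunit, was at 656 to 765 CPM (median 692) at 0 h and 506 to 591 CPM (median 557) at 24 h (log2 fold change -0.33, SE 0.05, adjusted p = 6.71e-06). Rpl13a was at 815 to 963 CPM (median 909) at 0 h and 673 to 775 CPM (median 721) at 24 h (log2 fold change -0.31, SE 0.05, adjusted p = 2.11e-05). The highest library of 24 h lay below the lowest of 0 h in both. Within WT 74 members were lower (7.78% of all genes tested were), with a median of -0.34. Within KO 27 were lower (5.55%), with a median of -0.15. The interaction was called in 11 members, each with the higher log2 fold change in KO (1.57% of all genes tested were called in that direction). With the KO libraries alone 19 members were lower.

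Other genes of protein synthesis and folding were called as follows. Of 38 genes of ribosome biogenesis 2 were higher, nucleolin, Ncl (log2 fold change 0.19, SE 0.04, adjusted p = 0.00174), and Heatr1 (0.23, adjusted p = 0.0266), whose counts may include reads of the overlapping Lgals8. Of the 39 tested targets of ATF4 and aminoacyl-tRNA synthetases, genes of the amino acid response, 1 was higher and 2 were lower. The transcription factor Atf5 was among them at 48.0 to 68.6 CPM (median 55.3) at 0 h and 23.4 to 32.4 CPM (median 30.4) at 24 h, without overlap (log2 fold change -0.98, SE 0.09, adjusted p = 1.36e-08), while Eprs, a tRNA synthetase, was higher (0.25, adjusted p = 0.000337) and Gars, another, was lower (-0.23, adjusted p = 0.00864). The other members of that list did not follow Atf5, with Asns at -0.16 (adjusted p = 0.545) and Trib3 at -0.14 (adjusted p = 0.810).

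Of 29 chaperones and unfolded protein response genes of the endoplasmic reticulum 5 were lower. Herpud1, a gene of protein quality control, was at 17.9 to 32.4 CPM (median 20.5) at 0 h and 10.3 to 15.6 CPM (median 13.7) at 24 h (log2 fold change -0.75, SE 0.14, adjusted p = 0.000291), and the others were Sec61b (-0.31), P4hb (-0.22), Canx (-0.20) and Xbp1 (-0.20). Within WT 11 of the 29 were lower (7.78% of all genes tested were) and within KO 2 were (5.55%). A positive interaction was called in 6 (1.57%). Of 22 tested heat shock genes 4 were lower, Fkbp4 (-0.35), Chordc1 (-0.27), Hspa4 (-0.12) and Hspa8 (-0.12), and with 1 library left out this count was 1 to 3, with 3 without KO Control 0 h library 3 or KO Control 24 h library 1.

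Lysosomal genes, which encode proteases, glycosidases and subunits of the proton pump, were mostly lower. All 51 listed genes were tested, 26 were called lower and 5 higher, and the median was -0.17. Of all genes tested 8.24% were lower and 7.48% higher. In 17 of the 51 the libraries of 24 h lay below all those of 0 h, beside 3.65% of all genes tested. Psap, the precursor of the saposins that assist lipid degradation, was at 8891 to 12145 CPM (median 11032) at 0 h and 6601 to 7453 CPM (median 6829) at 24 h (log2 fold change -0.60, SE 0.05, adjusted p = 2.02e-09). Ctsl, a cysteine protease, was at 806 to 914 CPM (median 842) at 0 h and 587 to 641 CPM (median 628) at 24 h (log2 fold change -0.45, SE 0.04, adjusted p = 1.77e-08). Both fell without overlap. The decrease was largest in Ctsk (-0.81, adjusted p = 0.00870), the collagen-degrading cathepsin, and Atp6v0d2 (-0.75, adjusted p = 1.02e-05), a subunit of the proton pump. Lgmn (-0.41), Ctsb (-0.35), Ctsz (-0.31), Tpp1 (-0.34), Lamp1 (-0.30) and Lipa (-0.26) were also lower. The 5 higher members included Tfec (0.57), a transcription factor of macrophages, Arsb (0.52), the autophagy receptor Sqstm1 and Galns (0.25). Sqstm1 rose from 739 ± 30.7 to 995 ± 37.2 CPM (SD, n = 6; log2 fold change 0.43, SE 0.04, adjusted p = 3.20e-08) and had been at 995 to 1131 CPM at 2 h. The letters CACGTG, the E-box that TFEB and its relatives bind, were in 12 of 49 promoters found for 39 members (24.5%) and in 7 of 28 promoters of members called lower (25.0%), beside 7.15% of all promoters.

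Surface receptors of macrophages moved in both directions. Of 52 listed receptors and scavenger genes 49 were tested, 9 were higher (7.48% of all genes tested were) and 20 lower (8.24%). Itgal, the integrin chain CD11a (chr7:127296260-127335138, plus strand), was at 87.2 to 115 CPM (median 99.4) at 0 h and 243 to 287 CPM (median 251) at 24 h, a 2.55-fold increase without overlap (log2 fold change 1.35, SE 0.06, adjusted p = 4.84e-15). The change was 1.37 within WT and 1.33 within KO. At 2 h it was at 138 to 159 CPM, between the ranges of 0 h and 24 h. Marco, a scavenger receptor, was at 194 to 483 CPM (median 325) at 0 h and 522 to 666 CPM (median 601) at 24 h (log2 fold change 0.89, SE 0.11, adjusted p = 1.59e-06), and Cx3cr1, the fractalkine receptor, was higher by 0.67 (adjusted p = 0.00389). Smaller increases were those of Msr1 (0.30), Itgam (0.29), Mertk (0.26), Cd5l (0.27), Clec4n (0.20) and Itgb2 (0.15).

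The lower receptors included scavenger, Fc, complement and chemokine receptors. Siglec1, the sialic acid receptor CD169, was at 249 to 383 CPM (median 326) at 0 h and 167 to 205 CPM (median 184) at 24 h (log2 fold change -0.77, SE 0.08, adjusted p = 5.35e-08). C5ar1, the receptor of complement C5a, was at 238 to 308 CPM (median 269.7) at 0 h and 167 to 188 CPM (median 170.2) at 24 h (log2 fold change -0.66, SE 0.05, adjusted p = 9.49e-10). Neither overlapped between the times. The haemoglobin receptor Cd163 was lower at -1.05 (adjusted p = 0.0232) and the mannose receptor Mrc1 at -0.94 (adjusted p = 7.47e-08). The Fc receptors were lower in each of the 4 genes tested, Fcgr4 (-0.76), Fcgr1 (-0.67), Fcgr2b (-0.47) and Fcgr3 (-0.34). Of the Toll-like receptors, Tlr7 (-0.60), Tlr9 (-0.38) and Tlr4 (-0.23) were lower, and Tlr2 at -0.05 and Tlr8 at -0.07 did not pass. Cd14, the co-receptor of Tlr4, was lower at -0.43 (adjusted p = 0.00292). Csf1r, the receptor of M-CSF, was at 1648 to 2344 CPM (median 1720.4) at 0 h and 1870.0 to 1932 CPM (median 1891) at 24 h (log2 fold change 0.04, SE 0.06, adjusted p = 0.735).

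Complement genes and genes of antigen presentation were lower or did not pass. Of 15 complement genes 11 were tested, 6 were lower (8.24% of all genes tested were) and 5 were not called. The 3 chains of C1q, the recognition molecule of the classical pathway, were lower together, with C1qb at 751 to 1007 CPM (median 921) at 0 h and 570.1 to 657 CPM (median 612) at 24 h (log2 fold change -0.53, SE 0.05, adjusted p = 5.06e-09), without overlap, C1qa lower at -0.48 and C1qc at -0.44. Of 10 tested genes of MHC class II presentation 4 were lower and the median was -0.48. Cd74, the invariant chain, was at 279, 196 and 217 CPM in WT and 485, 451 and 537 CPM in KO at 0 h, and at 186, 160.5 and 176 CPM and 218, 238 and 247 CPM at 24 h. The KO libraries were the higher ones at 0 h, and the decrease was larger there (-1.06) than in WT (-0.40; interaction -0.66, SE 0.12, adjusted p = 0.000635). H2-Eb1 (-0.89), H2-Ab1 (-0.82) and H2-Aa (-0.69) were the other lower members. Within KO 6 members were lower (5.55% of all genes tested were) with a median of -0.82. Within WT 1 was (7.78%), with a median of -0.10, and 5 had a negative interaction (2.16%).

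Among 24 transcription factors of the macrophage lineage 5 were higher and 4 lower. Mef2a was at 277 to 296 CPM (median 283) at 0 h and 376 to 403 CPM (median 397) at 24 h, without overlap (log2 fold change 0.47, SE 0.04, adjusted p = 6.16e-09), and had been at 471 to 529 CPM at 2 h. Cebpa (0.45), Nr1h3 (0.42), Tfec (0.57) and Id3 (1.60) were also higher. Pparg, the lipid-sensing nuclear receptor, was at 13.0 to 23.7 CPM (median 19.5) at 0 h and 8.90 to 11.9 CPM (median 10.5) at 24 h (log2 fold change -0.85, SE 0.13, adjusted p = 4.09e-05), and Maf (-0.34, adjusted p = 0.000301), Runx1 (-0.25) and Zeb2 (-0.21) were lower. Spi1, which encodes the lineage factor PU.1, was at 0.01 (adjusted p = 0.941). Of 14 genes of alternative activation 5 were tested, with Clec10a (-1.31) and Tgm2 (-0.33) lower and Chil3 (0.96) and Il4ra (0.27) higher. Counts of Tgm2 may include reads of the overlapping Rprd1b.

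**Figure D4:**
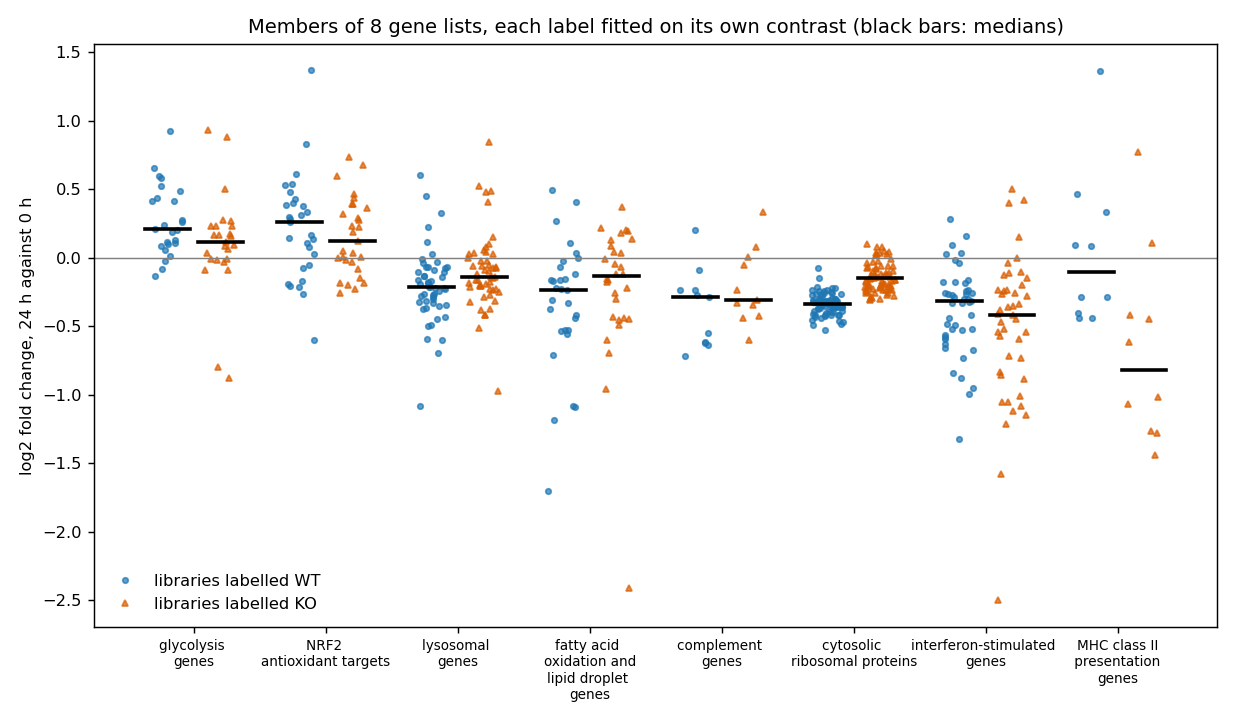
Log2 fold change of 24 h against 0 h on the y axis for each tested member of 8 gene lists, within WT (circles, left) and within KO (triangles, right), with black bars at the medians. Ribosomal protein genes lie lower in WT (median -0.34) than in KO (-0.15), and MHC class II genes lie lower in KO (-0.82) than in WT (-0.10).

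Many genes of fatty acid oxidation and lipid droplets were lower, and a few genes of lipid synthesis and export were higher. Of 33 listed oxidation and droplet genes 30 were tested, 13 were lower and 1 higher, with a median of -0.17. Of all genes tested 8.24% were lower and 7.48% higher. Plin2, the main coat protein of lipid droplets (chr4:86648386-86670060, minus strand), was at 401 to 478 CPM (median 420.3) at 0 h and 205 to 219.6 CPM (median 213) at 24 h, a 2.03-fold decrease without overlap (log2 fold change -1.02, SE 0.05, adjusted p = 1.75e-14), and had been at 234 to 278 CPM at 2 h. Mgll (-0.95), Fabp4 (-0.59), Cpt1a (-0.41, adjusted p = 2.86e-06), Slc25a20 (-0.43), Acadl (-0.37), Acaa2 (-0.39) and Cd36 (-0.34) were lower too, genes that act in lipid hydrolysis, uptake and the carnitine shuttle and in mitochondrial oxidation. Ppard, a nuclear receptor, was the higher member (0.31, adjusted p = 0.00439). Within KO 8 members were lower (5.55% of all genes tested were) and within WT 11 (7.78%).

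Of 15 targets of the liver X receptor (LXR) and cholesterol efflux genes 14 were tested, 6 were higher and 1 lower. Abca1, the cholesterol exporter, was at 453 to 637 CPM (median 585) at 0 h and 789 to 884 CPM (median 816) at 24 h (log2 fold change 0.57, SE 0.05, adjusted p = 8.82e-09), and had been at 926 to 1188 CPM at 2 h. Apoc1 was higher by 1.25 (adjusted p = 0.0489) and Nr1h3, which encodes LXRα, by 0.42 (adjusted p = 0.00295), followed by Mylip (0.28), Scarb1 (0.22) and Arl4c (0.20). Apoe was the lower member, at 26409 to 29225 CPM (median 27447) at 0 h and 22988 to 24497 CPM (median 24159) at 24 h (log2 fold change -0.21, SE 0.04, adjusted p = 0.000201). Of 15 tested genes of fatty acid synthesis, the desaturase Scd2 was at 49.1 to 73.5 CPM (median 63.1) at 0 h and 119 to 136 CPM (median 123) at 24 h, without overlap (log2 fold change 0.99, SE 0.07, adjusted p = 2.46e-10), Me1 was higher at 0.50 and Mid1ip1 lower at -0.36.

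Some glycolysis genes were higher, and the called genes of oxidative phosphorylation were lower. All 25 glycolysis genes were tested, 9 were higher and 16 were not called, and the median was 0.16. Pgk1 was at 162 to 195 CPM (median 182) at 0 h and 239 to 284 CPM (median 255) at 24 h (log2 fold change 0.51, SE 0.05, adjusted p = 5.45e-08). Aldoc was at 6.40 to 12.1 CPM (median 8.73) at 0 h and 14.8 to 18.4 CPM (median 17.7) at 24 h (log2 fold change 0.91, SE 0.13, adjusted p = 2.12e-05). Both rose without overlap, and at 2 h Pgk1 was at 158 to 171 CPM and Aldoc at 7.28 to 9.79 CPM. Ldhb (0.75), the glucose transporter Slc2a1 (0.46), Eno1 (0.29), Pfkl (0.26), Ldha (0.24), Pkm (0.24) and Gapdh (0.22) were the other higher members. Leaving out 1 library gave 8 to 13 higher members, and the KO libraries alone gave 4. Of 21 tested hypoxia-inducible genes 4 were higher, Bhlhe40 (log2 fold change 0.61, SE 0.09, adjusted p = 1.85e-05), Bnip3 (0.50, adjusted p = 0.000200), Ankrd37 (1.04) and Mxi1 (0.45), and Hif1a was lower (-0.24, adjusted p = 0.0105). The letters ACGTG are the core of the hypoxia response element. They were in 18 of 36 promoters of glycolysis genes (50%) and 16 of 25 of hypoxia-inducible genes (64.0%), beside 19.6% of all promoters. For members called higher they were in 6 of 14 promoters (42.9%) and 4 of 5 (80%), in the same order.

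Of 48 nuclear subunits of oxidative phosphorylation 6 were lower (8.24% of all genes tested were) and 42 were not called. The strongest decrease was -0.31 in Ndufa6 of complex I (adjusted p = 0.00450). Cox8a of complex IV was lower at -0.22 (adjusted p = 0.00954). The median was -0.14 within WT, where 6 members were lower (7.78% of all genes tested were), and -0.0013 within KO. Of 8 tested transcripts of mitochondrial DNA mt-Co1 was lower (log2 fold change -0.23, SE 0.05, adjusted p = 0.00132), and 4 were lower without KO Control 0 h library 3 and 2 without KO Control 24 h library 2. Within WT 6 of the 8 were lower (7.78% of all genes tested were) with a median of -0.23. The median within KO was 0.0068, and 2 had a positive interaction (1.57%).

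Genes of rapid inflammatory responses were mostly not called. For NF-κB and its feedback the counts were close to or under the shares over all genes tested (7.48% higher and 8.24% lower). Of 23 genes of NF-κB and its feedback 2 were higher, Icam1 (log2 fold change 0.33, SE 0.08, adjusted p = 0.00624) and Gadd45b (0.41, adjusted p = 0.0140), and Nfkbiz was lower (-0.53, adjusted p = 0.00348). Nfkbia was at 0.11 (adjusted p = 0.335) and Tnfaip3 at 0.03 (adjusted p = 0.839). Of 34 immediate early genes, which respond within minutes of a stimulus, 31 were tested, 5 were higher and 3 lower. Id2, of the family of Id1 and Id3, was at 86.6 to 136 CPM (median 102) at 0 h and 169.8 to 210.2 CPM (median 193) at 24 h, without overlap (log2 fold change 0.86, SE 0.07, adjusted p = 4.23e-09), and had been at 358 to 393 CPM at 2 h. Atf3 rose from 318 ± 27.3 to 414 ± 17.8 CPM (SD, n = 6; log2 fold change 0.38, SE 0.05, adjusted p = 7.18e-06), Egr1 by 0.63, Fosl2 by 0.25 and Fosl1 by 1.68 on the log2 scale. Jund (-0.29), Ier5 (-0.22) and Klf10 (-0.32) were lower, and Fos, at -0.07 (adjusted p = 0.731), did not pass.

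Of 41 cytokine and chemokine genes 27 were tested, 4 were higher and 6 lower, and 2 were higher without library 2 of KO Control 0 h, 1 or 3 of KO Control 24 h, 3 of WT Control 0 h or 3 of WT Control 24 h. Beside Ccl6, Il1rn and Vegfa, the lower members were Ccl9 (-0.92, adjusted p = 3.68e-09), a chemokine, Il16 (-0.43) and the growth factor Igf1 (-0.29). The higher members were Ccl22 (1.60, adjusted p = 0.00393), Cxcl2 (1.03, adjusted p = 0.0475), Cxcl14 (0.82) and Pdgfb (0.48), and Ccl22 and Cxcl2 stood at means of 1.01 to 2.94 CPM and 1.19 to 2.48 CPM. The classical inflammatory cytokines did not pass, with Tnf at 0.25 (adjusted p = 0.160) and Il1b at 0.96 (adjusted p = 0.194), and Il6 and Il12b were under the filter on low counts. Csf1, which encodes M-CSF, was at 0.160 to 5.67 CPM (median 1.56) at 0 h and 1.57 to 7.83 CPM (median 3.76) at 24 h and did not pass (log2 fold change 0.86, SE 0.37, adjusted p = 0.124).

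Few genes of the cell cycle were called. Their counts over both labels were close to or under the shares over all genes tested (7.48% higher and 8.24% lower). Of 48 genes of DNA replication and the G1/S step 4 were higher, Mcm6 (log2 fold change 0.23, SE 0.06, adjusted p = 0.0128), Mcm5 (0.26), Lig1 (0.25) and Clspn (0.37, adjusted p = 0.0291), 37 of the 48 had a positive log2 fold change, and leaving out 1 library gave 1 to 5 higher members, with 1 without KO Control 0 h library 2 or KO Control 24 h library 1 and 2 without library 3 of KO Control 0 h, 2 of KO Control 24 h, 1 of WT Control 0 h or 2 or 3 of WT Control 24 h. Within KO 12 were higher (4.52% of all genes tested were) with a median of 0.24. The median within WT was 0.015, and 5 had a positive interaction (1.57%). Of 41 genes of G2/M and mitosis 2 were lower, Cdc25b (-0.49, adjusted p = 0.0135) and Prc1 (-0.32, adjusted p = 0.0140), both of which overlap another gene (Spef1 and Rccd1). The proliferation marker Mki67 was at -0.06 (adjusted p = 0.569). Of 20 tested targets of p53 5 were higher, with Plk3 at 11.4 to 19.4 CPM (median 16.3) at 0 h and 20.1 to 30.3 CPM (median 27.0) at 24 h, without overlap (log2 fold change 0.70, SE 0.13, adjusted p = 0.000415), Tnfrsf10b higher by 1.36, Trp53inp1 by 0.46, the cell cycle inhibitor Cdkn1a by 0.36 and Mdm2 by 0.20. Plk2 was lower (-0.22, adjusted p = 0.0162).

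Of 30 tested genes of matrix, proteases and adhesion 8 were higher and 9 lower, and 5 were higher without KO Control 0 h library 1. Mmp8, a collagenase also listed as a granulocyte marker, was at 51.3 to 66.4 CPM (median 56.7) at 0 h and 87.5 to 107 CPM (median 95.4) at 24 h (log2 fold change 0.75, SE 0.06, adjusted p = 1.69e-09). Tgfbi, a matrix protein induced by TGF-β, was at 75.2 to 116 CPM (median 83.2) at 0 h and 138 to 166 CPM (median 157) at 24 h (log2 fold change 0.78, SE 0.07, adjusted p = 2.04e-08). Neither overlapped, and at 2 h Tgfbi was at 172 to 235 CPM. Itga5, the fibronectin receptor chain, was higher by 0.55. Lgals3, a galectin, was at 1791 to 2203 CPM (median 1986) at 0 h and 1359 to 1447 CPM (median 1435) at 24 h, lower without overlap (log2 fold change -0.49, SE 0.04, adjusted p = 5.06e-09), and Spp1 (-0.62), Timp2 (-0.43), Lgals1 (-0.38) and Vim (-0.26) were also lower. Of 17 tested clock genes 2 were higher, Bhlhe40 among them, and 3 lower, Nr1d1 (-0.70), Dbp (-0.51, a gene that overlaps Sphk2) and Bhlhe41 (-0.31), while Per2 at -0.04 and Clock at 0.04 did not pass.

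Of 13 genes of the response to osmotic stress 11 were tested, 3 were lower and 1 higher. Slc5a3, the myo-inositol transporter, was at 52.0, 43.3 and 46.6 CPM in WT and 261, 112 and 294 CPM in KO at 0 h, and at 29.7, 37.2 and 40.6 CPM and 32.3, 28.4 and 55.2 CPM at 24 h. KO stood above WT at 0 h, with library 2 the lowest of the KO libraries, and the labels overlapped at 24 h. Its change was -2.48 in KO and -0.37 in WT, where it did not pass (interaction -2.11, SE 0.30, adjusted p = 4.79e-05), and its counts may include reads of Mrps6 on the same strand. Akr1b8, an aldo-keto reductase, fell without overlap (log2 fold change -0.77, SE 0.08, adjusted p = 3.48e-08), with -0.63 in WT and -0.93 in KO. Nfat5, which encodes the transcription factor of the response, was higher (log2 fold change 0.36, SE 0.08, adjusted p = 0.00242), with 0.63 in WT and 0.09 in KO. Within KO 6 members were lower (5.55% of all genes tested were) and 1 higher (4.52%). Within WT 1 was lower (7.78%) and 3 were higher (7.26%). A negative interaction was called in 5 (2.16%).

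The change from 0 h to 24 h was further compared between the labels across all genes. Within WT 1652 genes (15.0%) were called, 797 higher (7.26%) and 855 lower, and within KO 1107 (10.1%) were called, 497 higher (4.52%) and 610 lower. The change differed between the labels in 409 genes (3.72%), with a more positive change in KO in 172 (1.57%) and a more negative one in 237 (2.16%). Of the 409, 207 were called within WT alone, 131 within KO alone, 33 in both with the same sign, 21 in both with opposite sign and 17 in neither. The gap between the label means was larger at 0 h than at 24 h in 393 of the 409 genes and larger at 24 h in 16. The median absolute gap was 0.493 at 0 h and 0.0976 at 24 h, on the scale of log2(CPM + 1). These gaps come from the libraries used for the interaction, and the genes were picked for a gap that differed between the times. The gaps over all genes tested were not measured, so the values are a description.

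The libraries of WT Control 0 h stood apart from all other untreated libraries on the component that held the most variance. In a principal component analysis of the 18 untreated libraries, component 1 held 18.4% of the variance, and on it WT Control 0 h lay between -29.4 and -27.0, KO Control 0 h between 5.14 and 10.4, WT Control 24 h between -6.37 and 7.47 and KO Control 24 h between 11.6 and 18.6. At 0 h the labels were therefore farther apart than at 24 h on this component. The libraries of 2 h lay between -10.4 and 16.3 on it. On component 2 (15.8% of the variance) the libraries of 2 h were the ones apart, between -24.4 and -14.7. WT Control 0 h lay there between 4.95 and 7.36, beside WT Control 24 h between 6.74 and 8.31. The labels of the mice and any difference in how their 0 h cultures were handled cannot be told apart.

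Among genes with a negative interaction, a transporter of organic anions, Slco4a1, was at 46.0, 50.5 and 33.5 CPM in WT and 299.8, 119 and 364 CPM in KO at 0 h, and at 91.8, 115 and 88.2 CPM and 102, 87.9 and 129.7 CPM at 24 h. It rose in WT (log2 fold change 1.20, SE 0.22, adjusted p = 9.82e-05) and fell in KO (log2 fold change -1.28, SE 0.19, adjusted p = 4.50e-06). Slc6a12, which carries the osmolyte betaine, was at 12.5, 12.0 and 10.1 CPM in WT and 95, 31.7 and 128 CPM in KO at 0 h, and at 16.3, 19.9 and 19.1 CPM and 16.4, 15.0 and 25.6 CPM at 24 h. Its decrease in KO was -2.12. Fxyd2 and Ndrg2 had the same order of the labels at 0 h, with Ndrg2 at 1.47, 2.24 and 1.21 CPM in WT and 19.4, 8.71 and 31.3 CPM in KO. Col6a3, a collagen chain, had 0 to 2 counts in the WT libraries of 0 h, so its fitted change there depends on a prior count. Its level was 9.60, 12.2 and 14.6 CPM in KO at 0 h and 1.72, 1.75 and 8.59 CPM in WT and 9.60, 5.01 and 3.16 CPM in KO at 24 h. WT library 3 was the one with the higher level at 24 h, and the fibroblast marker sum was also highest in that library among WT libraries (47.3 CPM). The part of fibroblasts in this value was not tested.

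Among genes with a positive interaction, Ccnd1, the cyclin that drives entry into the cell cycle, was at 138, 126 and 145 CPM in WT and 58.2, 86.4 and 44.1 CPM in KO at 0 h, and at 106, 93.6 and 105 CPM and 104, 101 and 89.7 CPM at 24 h. The labels did not overlap at 0 h and did at 24 h. It fell in WT (log2 fold change -0.43, SE 0.11, adjusted p = 0.00671) and rose in KO (log2 fold change 0.63, SE 0.12, adjusted p = 0.000292), and LTO1 overlaps it. Plau, the urokinase plasminogen activator, was at 128, 129 and 118 CPM in WT and 61.0, 97.0 and 53.4 CPM in KO at 0 h, with a change of 0.97 in KO and -0.03 in WT. Pf4, a chemokine, fell in WT (-0.52) and rose in KO (0.64), as did Lars2, a mitochondrial tRNA synthetase (-0.52 and 0.46). Ccng1, a p53 target, rose in KO (0.50) and was at -0.20 in WT. Marco rose in both labels, by 0.48 in WT and 1.32 in KO.

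**Figure D5:**
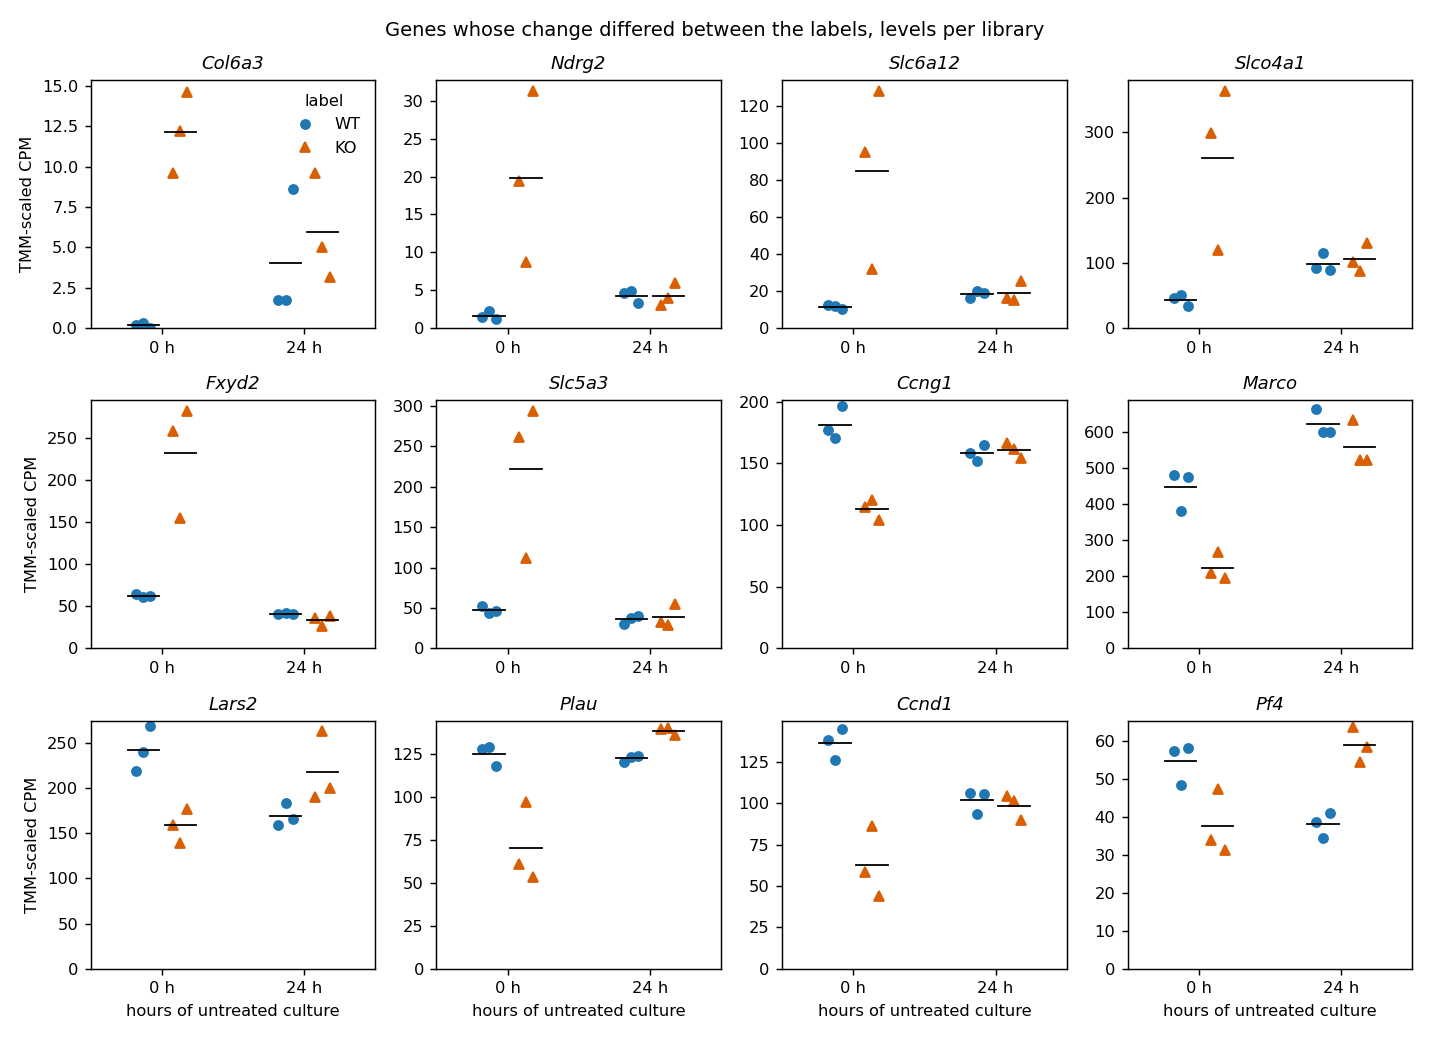
Levels per library in TMM-scaled CPM on a linear axis from 0 at 0 h and 24 h for the 12 genes named for a difference in change between the labels, with circles for WT, triangles for KO and black lines for the mean of 3 libraries. The labels lie apart at 0 h in all 12 panels and closer together at 24 h in most, as in Slc5a3, where KO reaches 294 CPM at 0 h and 55.2 CPM at 24 h. The rule by which the genes were named fixed in advance that the gap differs between the times.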

How the data were processed

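RNA was made into stranded libraries of total RNA, with ribosomal cDNA removed after cDNA synthesis, and sequenced from both ends. Per the labels' processing notes the authors used fastp 0.19.11 and STAR 2.7.3a, with mm10 and mm9 listed as builds, and the table they deposited holds raw, not normalised, counts per gene. Annotation release and use of strand are not given in the sources used here, so counts of overlapping genes and close paralogs are uncertain. Columns name a group and no replicate, so library numbers follow column order and pair nothing. All 42 columns matched a group. Symbols (32620 of 37310 identifiers) and positions came from GENCODE vM21 (GRCm38, the assembly of mm10).

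The 12 libraries held 3420759 to 7743442 counts. Chi-square per degree of freedom between replicates was 1.93 to 6.62, so none matched within sampling noise. Genes kept by filterByExpr were tested in R 4.3.3 with edgeR 4.0.16, as raw counts with TMM factors from the 18 untreated libraries, in a quasi-likelihood F test with genotype and time as terms and, for the interaction and the values within a genotype, with both and their product. A gene was called at a Benjamini-Hochberg adjusted p under 0.05, and the SE is the log2 fold change divided by the square root of F. Medians and ranges are of TMM-scaled CPM. Intervals and floors of 3 counts cover counting error only.

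Named genes were the 12 largest changes per direction (called, at least 5 CPM at the higher time, no overlap), up to 2 called genes per direction and list with the smallest adjusted p and at least 5 CPM, 6 per sign for the interaction with the smallest adjusted p, and Irf5, Lyz2, Ghitm, Csf1 and Csf1r. Some genes that met these rules are not reported here. Other genes are members of the 30 gene lists and 8 marker lists, named after their values were seen. The members and the lists were chosen with earlier results of these data known. In a simulation of this comparison with 10827 genes, 84.0% of 2-fold and 100% of 4-fold changes were recovered. There 6.12% of calls fell on genes simulated without a change, and 0 genes were called by the edgeR test where no gene was changed. The simulated spread was set by a formula and not taken from these libraries. No effect of genotype or of a single group was simulated, so the rates hold for that setting only. Alternatives were RLE size factors, TMM over 12 libraries, all genes with a count, DESeq2 1.42.0, other sets of libraries, a fold threshold and leaving out each library. The 250 bases before the start came from RefSeq (GRCm38.p6).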

Additional observations from a re-analysis of the deposited data

Results flagged for a closer look

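In 12 genes the change from 0 h to 24 h differed between the labels by a test of the difference itself (edgeR's interaction of genotype and time, with the smallest adjusted p of each sign). Each value is the log2 fold change in KO minus that in WT. The values above 0 were 1.16 for the chemokine Pf4 (adjusted p = 5.41e-05), 1.06 for the cyclin Ccnd1 (adjusted p = 0.000148), 0.99 for the protease Plau (adjusted p = 0.000107), 0.97 for the mitochondrial tRNA synthetase Lars2 (adjusted p = 1.52e-05), 0.84 for the scavenger receptor Marco (adjusted p = 4.79e-05) and 0.70 for the p53 target Ccng1 (adjusted p = 4.86e-05). The values under 0 were -5.73 for the collagen chain Col6a3 (adjusted p = 5.76e-05), -3.49 for Ndrg2 (adjusted p = 0.000142), -2.82 for the betaine transporter Slc6a12 (adjusted p = 4.79e-05), -2.48 for the anion transporter Slco4a1 (adjusted p = 1.20e-06), -2.17 for the sodium pump subunit Fxyd2 (adjusted p = 4.85e-09) and -2.11 for the inositol transporter Slc5a3 (adjusted p = 4.79e-05).

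The value of Col6a3 rests on 0 to 2 counts in the WT libraries of 0 h and depends on the prior count of the fit. DESeq2 did not call Col6a3 or Ndrg2 for the interaction, and Col6a3 was not called in the fit of all 42 libraries. In KO Control 0 h, library 2 lay between WT and the other KO libraries in Slc5a3, Slc6a12, Slco4a1, Ndrg2, Fxyd2, Plau and Ccnd1. Without that library 746 genes were called for the interaction, beside 409 with it.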

How the results depend on the processing

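The counts of genes called, higher and lower kept within 1.5 times of 1727, 822 and 905 under RLE size factors (1718 called), TMM over the 12 libraries (1727), DESeq2 (1701), all genes with a count (1775 of 20745 tested), 1 mean per genotype and time (2087), all 42 libraries (1920) and the WT libraries alone (1878). The KO libraries alone gave 900 called, 403 higher and 497 lower, with fewer samples in the fit. A log2 fold change over 1 in size left 121 called, 93 higher and 28 lower. Leaving out 1 library gave 1463 to 1690 called, 693 to 818 higher and 749 to 872 lower. The interaction was called in 409 genes, in 410 with RLE, 317 with DESeq2, 499 with all genes and 213 with all 42 libraries, and in 175 (without KO Control 24 h library 2) to 746 (without KO Control 0 h library 2) with 1 library left out. Counts more than 1.5 times under 409 were also 254 and 250 without library 1 of KO Control 0 h and 24 h, and 237 and 256 without library 3 of WT Control 0 h and 24 h. The cause was not tested.

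Of 102 named genes called for time, 94 kept the call under every alternative but the single genotypes, and 0 of the 102 reversed in any, edgeR and DESeq2 included. Cdc25b, Chordc1, Clspn, Gbp3, Heatr1, Plk2 and Prc1 lost it with 1 library left out, Prc1 also with all 42 libraries, and Gbp3 with all genes. A gene that lost it only under another alternative is not named here. Of members lower among G2/M and mitosis genes there were 4 without KO Control 0 h library 3 or KO Control 24 h library 1 and 1 without WT Control 0 h library 3, beside 2. With WT alone 13 of the 102 lost the call and with KO alone 24. The change of 3 uncalled genes turned its sign. That of Irf5 was 0.12 with WT alone and -0.045 to 0.021 with 1 library left out, that of Lyz2 0.15 with WT alone and -0.13 to 0.024 with 1 left out, and that of Csf1r -0.11 with KO alone. The median of all genes moved by under 0.1 under every scaling. Depth limits calls of genes near 3 counts (0.387 to 0.877 CPM).

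No paired analysis was possible because the columns carry no replicate numbers. The fit with a replicate block was therefore not run.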

Other observations

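Genes outside the lists were read after their values were seen, and their values are given without a test of any group. Beside Smad6 and Pmepa1, other genes of TGF-β signalling differed between the times. Skil, a repressor of SMAD proteins, rose from means of 173 to 298 CPM (log2 fold change 0.78, SE 0.05, adjusted p = 1.09e-10), and Smad7, the inhibitory SMAD of that pathway, from 11.9 to 24.5 CPM (log2 fold change 1.03, SE 0.12, adjusted p = 8.64e-07). Both were higher at 2 h, with 553 to 584 CPM and 103 to 125 CPM. The pseudoreceptor Bambi was higher (0.50, adjusted p = 0.00632), and of the receptors Tgfbr1 was higher (0.23, adjusted p = 0.00305) and Tgfbr2 lower (-0.42, adjusted p = 4.21e-07). The ligand gene Bmp2 fell from 3.43 to 0.803 CPM (log2 fold change -2.04, SE 0.39, adjusted p = 0.000413), and Tgfb1 was at -0.04 (adjusted p = 0.699).

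Some genes of the actin cortex were among the higher ones, with Ezr, which links membrane and actin, at 0.76 (adjusted p = 2.12e-08), Lsp1, a leukocyte actin-binding protein, at 0.91 (adjusted p = 4.53e-07), Hcls1 at 0.53 (adjusted p = 2.69e-08) and Macf1 at 0.46 (adjusted p = 1.83e-06). Gpr84, a receptor of medium-chain fatty acids, rose from 0.579 to 4.85 CPM (log2 fold change 2.97, SE 0.45, adjusted p = 2.50e-05). Of genes of amino acid and NAD metabolism, the transporter Slc7a8 was higher at 1.02 (adjusted p = 2.85e-10), the arginine-synthesising enzyme Ass1 at 1.18 (adjusted p = 3.48e-08) and Nampt at 0.67 (adjusted p = 1.09e-10). Some genes of secreted proteins were lower, with Gas6, the ligand of Mertk and Axl, at -0.70 (adjusted p = 4.59e-10) and Col18a1 at -1.19 (adjusted p = 3.11e-07). The selenoproteins Selenop at -0.52 (adjusted p = 6.79e-07) and Gpx3 at -1.02 (adjusted p = 1.19e-09) were lower too. Other genes of secreted proteins named above, among them Ltbp2, Tgfbi and Ccl22, were higher.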
